A study of Mus musculus with 12 samples.

Results

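The cytochrome P450 families 1 to 3 were described here in liver RNA sequencing of female mice. Members were all rows of the deposited table whose symbol is Cyp1, Cyp2 or Cyp3 with a subfamily letter and a gene number, without pseudogenes, and with at least 10 counts summed over the 12 mice. Of 48795 genes in the table, 60 had such a symbol and 49 were members. The members with the lowest totals were Cyp2j8 and Cyp3a57, with 21 counts each, and the closest gene left out, Cyp2t4, had 3 counts. Of the 49 members, 44 had enough counts for the test between groups. Cyp2d11, Cyp2d12, Cyp2j8, Cyp2s1 and Cyp3a57, with 21 to 37.1 counts in all, did not.

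The mice were 4 months old, ate normal chow and were age- and sex-matched littermates bred from Nts+/- parents. They were labelled Nts+/+ or Nts-/-, the latter bred to lack neurotensin in the whole body, and were fed or had been fasted for 22 h. Each of the 4 groups held 3 mice. The fed mice were 254, 257 and 323 (labelled Nts+/+) and 277, 303 and 319 (labelled Nts-/-). The fasted mice were 265, 282 and 322 (Nts+/+) and 284, 290 and 295 (Nts-/-). The sources used here do not say from how many litters the mice came, so the p-values measure the spread between these animals only.

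P450 enzymes of families 1 to 3 are heme proteins of the endoplasmic reticulum that add oxygen to drugs, pollutants, steroids and fatty acids. They take their electrons from P450 reductase (Por) and, for some substrates, from cytochrome b5. In liver most of them are made by hepatocytes near the central vein, and many are under the control of the receptors AhR, CAR and PXR, of HNF4A, and of the sex-dependent rhythm of growth hormone. In mice several subfamilies have grown into clusters of near-identical genes.

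The counts of the targeted gene, Nts, were higher under the label Nts-/- than under Nts+/+. Nts had 0 counts in each of the 6 libraries labelled Nts+/+, and 46, 40 and 15 counts in the fed and 12, 4 and 18 counts in the fasted libraries labelled Nts-/-. The paper names the nervous system, small intestine and lymphatic endothelium of adipose tissue as sources of neurotensin. Whether the labels are exchanged or the targeted allele still gives transcripts was not tested. Every direction between genotypes below is therefore that of the labels. The comparison of fasted with fed livers over both genotypes does not depend on which label is which. Depth was between 21999647 and 45273069 counts per mouse. The fasting genes Pck1, Cpt1a and Fgf21 rose and the feeding genes Fasn and Srebf1 fell with fasting. Hepatocyte markers summed to 106228 to 138573 CPM (counts scaled to the size of the library) in the 12 mice, and each of the 5 kidney and 5 lung markers, tissues that also express Cyp2 genes, was at 0 or near it, with a summed level of at most 0.275 CPM.

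Together the members took 1.73% to 2.65% of all counts in fed livers and 2.48% to 2.97% in fasted livers. Levels are given as TMM-normalized CPM, which are counts scaled to the effective library size. Per kilobase of the longest annotated transcript, so that genes can be compared, Cyp2e1 was the most abundant over all mice, at 3926 CPM per kilobase. Cyp2e1 oxidizes ethanol, acetone and paracetamol. Cyp3a11, the main mouse counterpart of the human drug-metabolizing CYP3A enzymes, followed at 1390.2 CPM per kilobase. Cyp2d26 (640.3), Cyp2c69 (527), Cyp2c37 (475), Cyp2c50 (406) and Cyp2c29 (346) came next on the same scale. At the other end, Cyp1a1, the classical AhR-induced enzyme, had 0.151 CPM per kilobase, and Cyp1b1 0.0666.

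The make-up of the family's transcripts differed between fed and fasted livers. In fed livers the Cyp2c genes made up between 29.2% and 37.7% of the family's counts, and Cyp2e1 between 19.4% and 26.1%. In fasted livers the Cyp2c genes made up between 13.5% and 19.2%, and Cyp2e1 between 35.6% and 44.3%. The fed and the fasted mice did not overlap in either share. The Cyp1a share also separated them, at 1.35% to 3.12% in fed and 0.466% to 0.812% in fasted livers. So did those of Cyp2j (2.81% to 3.69% in fed, 1.83% to 2.24% in fasted livers) and Cyp2f (1.87% to 2.56% and 0.802% to 1.70%). The small Cyp2r share did as well (0.0543% to 0.0817% and 0.0159% to 0.0288%). The shares of Cyp3a, Cyp2d, Cyp2a and the remaining subfamilies overlapped. Shares of one total move together by construction, so each subfamily was also tested on its own below.

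**Figure D1:**
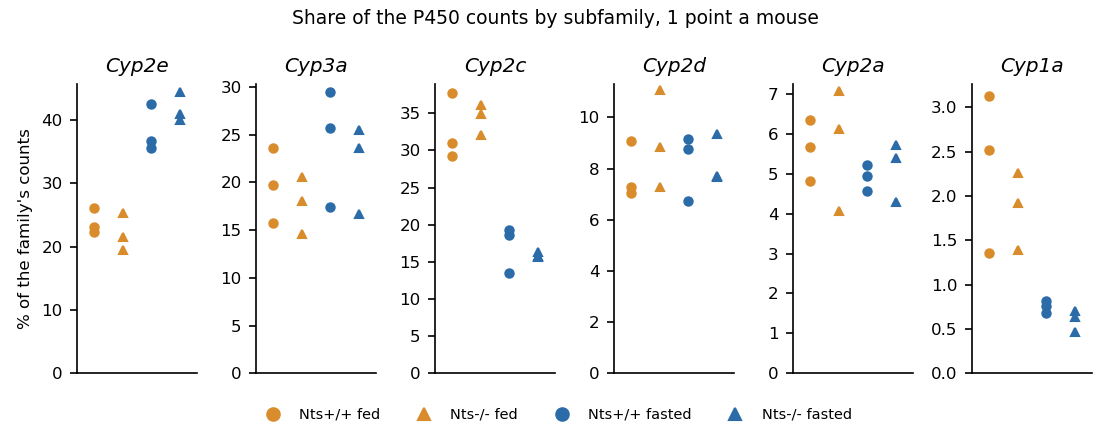
Each panel gives, on its own vertical axis from 0, the percentage of all counts on the 49 members that fell on one subfamily, with 1 point per mouse (circles, labelled Nts+/+; triangles, labelled Nts-/-; orange, fed; blue, fasted). The Cyp2e points sit between 19.4% and 26.1% in fed and between 35.6% and 44.3% in fasted mice, while those of Cyp2c move the other way.

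The first question was which members differed between fasted and fed livers over both genotypes (6 mice against 6). Of 44 tested members, 20 passed an adjusted p of 0.05 (edgeR's quasi-likelihood test, Benjamini-Hochberg over 13812 genes), which is 45.5%, where 32.8% of all tested genes passed. Of these, 8 rose (18.2%, against 16% of all tested genes) and 12 fell (27.3%, against 16.8%). The median log2 fold change of the members was 0.087, against -0.0071 over all tested genes, and the median of its absolute size was 0.59 against 0.27. Members in which all 6 fasted mice lay above all 6 fed mice numbered 4 (Cyp2e1, Cyp2c39, Cyp3a25 and Cyp3a59), where 8.05% of all tested genes separated in that direction. In another 6 (Cyp2c40, Cyp2c44, Cyp2c55, Cyp2c69, Cyp2c70 and Cyp2r1) they lay below, against 7.83% of all tested genes. In bulk RNA, fewer cells of a type and less RNA per cell cannot be told apart.

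**Figure D2:**
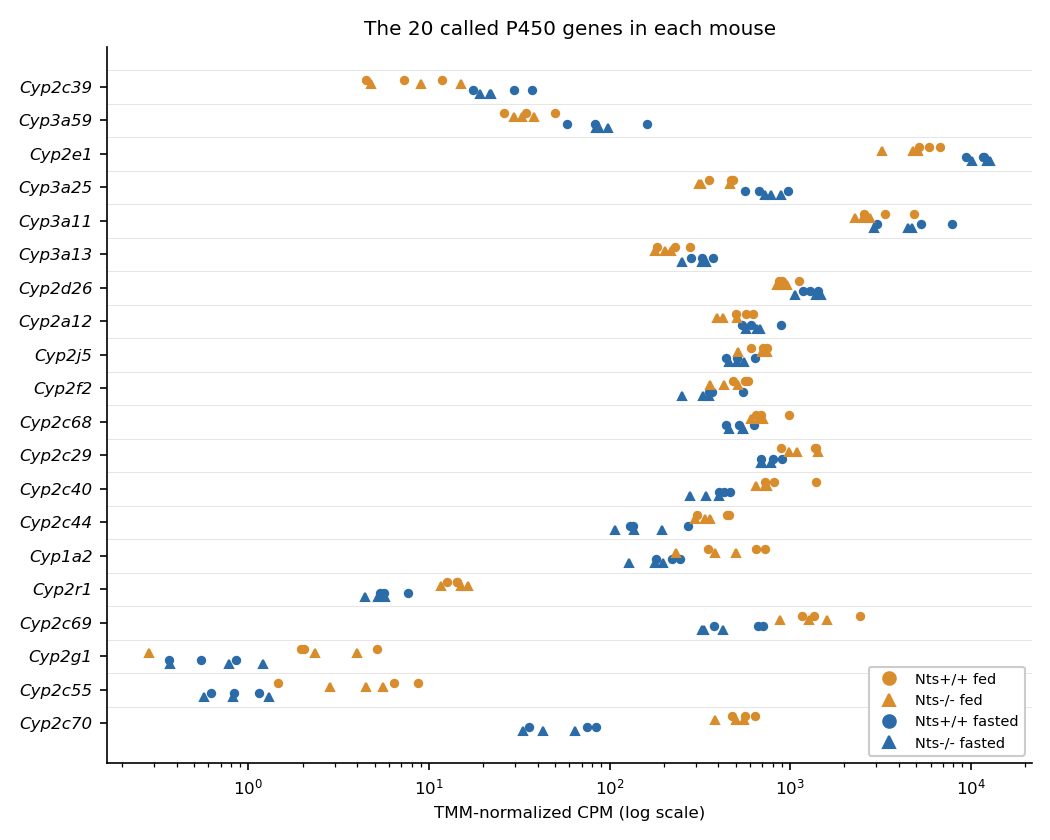
TMM-normalized CPM (log axis) of the 20 members that passed the test, 1 symbol per mouse (circles, labelled Nts+/+; triangles, labelled Nts-/-; orange, fed; blue, fasted), ordered by log2 fold change. Cyp2c70 at the bottom lies between 529.8 (median, fed) and 53.6 (median, fasted), and Cyp2c39 at the top goes from a median of 8.13 to 21.9.

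The Cyp2c subfamily held most of the genes that fell. Its 13 members lie on chromosome 19 (GRCm38, as are all gene positions here), 12 of them within 1.18 Mb from 39007019 to 40187333, and Cyp2c44 apart at 44005022 to 44029208. Of the 13, 7 fell (against 16.8% of all tested genes), 1 rose (against 16%) and 5 did not pass the test. The 13 had a median log2 fold change of -0.45. Their summed counts had a log2 fold change of -0.67 (standard error 0.13, adjusted p = 0.00118).

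Cyp2c70 (ENSMUSG00000060613, chromosome 19 from 40153353 to 40187333), which hydroxylates chenodeoxycholic acid towards the muricholic acids of the mouse, fell the most of all members. Its level was 479.6, 561 and 643 CPM in the fed livers labelled Nts+/+ and 557, 503 and 382 CPM in those labelled Nts-/-. In fasted livers it was 74.8, 84.1 and 35.9 CPM (Nts+/+) and 42.7, 64.4 and 33.2 CPM (Nts-/-). The lowest fed mouse was thus far above the highest fasted one, and the mean difference was 9.43-fold (log2 fold change -3.24, standard error 0.23, adjusted p = 2.46e-06). No stretch of 50 bases of its longest annotated transcript occurs in a transcript of another gene.

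At the other end of the same cluster Cyp2c55 (ENSMUSG00000025002, chromosome 19 from 39007019 to 39042693), an inducible target of CAR and PXR, was scarce. It had 8.68, 6.40 and 1.46 CPM (Nts+/+) and 2.83, 4.49 and 5.56 CPM (Nts-/-) in fed and 1.14, 0.826 and 0.624 CPM and 0.825, 1.30 and 0.567 CPM in fasted livers. The groups did not overlap, although the lowest fed mouse came close to the highest fasted one (log2 fold change -2.50, standard error 0.41, adjusted p = 0.000821). Cyp2c44 (ENSMUSG00000025197, chromosome 19 from 44005022 to 44029208), an arachidonic acid epoxygenase, was between 299 and 462 (median 349) CPM in fed and between 107 and 272 (median 136) CPM in fasted livers (log2 fold change -1.18, standard error 0.21, adjusted p = 0.00121). Its longest transcript has no such stretch in common with another gene either.

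Cyp2c40, Cyp2c67, Cyp2c68 and Cyp2c69 are neighbours and near copies, and between 42.3% and 53.3% of the 50-base windows of their longest transcripts also occur in other genes. Reads from these windows were divided between the genes by the authors' estimate, so the single values are uncertain. Of these, Cyp2c69 was at between 876 and 2451 (median 1320.2) CPM in fed and at between 327 and 706 (median 401) CPM in fasted livers (log2 fold change -1.65, standard error 0.23, adjusted p = 0.000205). Cyp2c40 had a log2 fold change of -1.11 (adjusted p = 0.000132) and Cyp2c68 of -0.45 (adjusted p = 0.0148), while Cyp2c67 did not pass the test at -0.046 (adjusted p = 0.845). Their summed level does not depend on how those reads were divided among the 4 genes. It was between 2419 and 5139 CPM (median 2991) in fed and between 1283 and 2027 CPM (median 1530.1) in fasted livers, with no overlap.

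Cyp2c29, an abundant epoxygenase also inducible through CAR, was between 887 and 1436 (median 1234) CPM in fed and between 687 and 901 (median 739) CPM in fasted livers (log2 fold change -0.65, standard error 0.14, adjusted p = 0.00262). The group ranges overlapped by 1 fed mouse (323, 887 CPM). Cyp2c37, Cyp2c38, Cyp2c50 and Cyp2c54 did not pass the test, with log2 fold changes of 0.073, 0.20, -0.18 and -0.17 (adjusted p = 0.798, 0.215, 0.417 and 0.631). Cyp2c39 (ENSMUSG00000025003, chromosome 19 from 39510862 to 39568529), a retinoic acid hydroxylase and epoxygenase between Cyp2c38 and Cyp2c67, was the 1 member of the subfamily that rose. It was at 7.24, 4.49 and 11.7 CPM (Nts+/+) and 9.02, 15.1 and 4.79 CPM (Nts-/-) in fed livers, and at 29.7, 37.1 and 17.5 CPM and 21.7, 22.2 and 19.1 CPM in fasted livers. No fasted mouse fell into the fed range (log2 fold change 1.49, standard error 0.31, adjusted p = 0.00499). The largest fall and this rise thus lay in the same gene cluster.

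The promoters of the Cyp2c genes with the largest fall and with the rise are shown so that they can be set side by side. Each runs 5′ to 3′ on the gene's strand, from 250 bases before to 50 after the RefSeq start (GRCm38.p6). Capitals mark the matches to motifs searched on both strands, which in Cyp2c70 (chr19:40187237-40187536, minus strand) are the nuclear receptor motif AGGTCA and the HNF4A motif CAAAGTCCA, and in Cyp2c39 (chr19:39510572-39510871, plus strand) the FoxO and FoxA motif TGTTTAC. RefSeq lists 2 promoters for Cyp2c39. The other, at chr19:39347096-39347395 (plus strand), does not hold the start of the gene in the deposited table and is not shown, and it has 1 match to AGGTCA and 1 to TGTTTAC.
Cyp2c70: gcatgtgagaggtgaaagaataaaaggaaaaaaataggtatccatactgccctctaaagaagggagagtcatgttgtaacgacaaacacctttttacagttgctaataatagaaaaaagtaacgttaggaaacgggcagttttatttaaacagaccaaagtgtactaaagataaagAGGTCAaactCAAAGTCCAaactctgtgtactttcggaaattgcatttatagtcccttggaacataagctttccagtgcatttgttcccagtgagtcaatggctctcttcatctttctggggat
Cyp2c39: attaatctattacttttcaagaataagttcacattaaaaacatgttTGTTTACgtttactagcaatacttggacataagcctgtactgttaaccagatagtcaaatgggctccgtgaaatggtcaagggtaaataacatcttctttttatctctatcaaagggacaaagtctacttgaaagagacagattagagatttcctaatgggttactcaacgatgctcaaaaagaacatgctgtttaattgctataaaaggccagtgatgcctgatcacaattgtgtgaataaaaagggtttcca

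RefSeq gave a promoter for 43 of the 49 members (not for Cyp2c44, Cyp2c54, Cyp2d12, Cyp2d22, Cyp2g1 and Cyp2u1). CAAAGTCCA was present in 9 of these 43 (20.9%), and in 0.475% of all 32851 RefSeq promoters of the same length. Of the 10 members with a promoter that fell, 4 held it, and of the 8 that rose, 1 did. The 9 matches are shown because they fall into a few shared sequences, with the motif in capitals and 15 bases on each side, on the minus strand of chromosome 19 (Cyp2c) or 5 (Cyp3a). They lie in GRCm38.p6 at chr19:39812836-39812874 (Cyp2c40), chr19:39886821-39886859 (Cyp2c69), chr19:39741155-39741193 (Cyp2c68), chr19:39649144-39649182 (Cyp2c67), chr19:40187327-40187365 (Cyp2c70), chr5:145879940-145879978 (Cyp3a11), chr5:145469799-145469837 (Cyp3a16), chr5:145720208-145720246 (Cyp3a41a) and chr5:145584802-145584840 (Cyp3a41b).
Cyp2c40: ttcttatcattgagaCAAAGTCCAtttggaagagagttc
Cyp2c69: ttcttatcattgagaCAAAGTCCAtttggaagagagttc
Cyp2c68: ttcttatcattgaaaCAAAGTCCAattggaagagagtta
Cyp2c67: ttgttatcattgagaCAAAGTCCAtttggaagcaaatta
Cyp2c70: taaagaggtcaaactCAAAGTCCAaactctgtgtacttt
Cyp3a11: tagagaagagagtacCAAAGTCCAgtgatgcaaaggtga
Cyp3a16: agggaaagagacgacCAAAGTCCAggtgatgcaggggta
Cyp3a41a: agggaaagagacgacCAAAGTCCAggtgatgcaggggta
Cyp3a41b: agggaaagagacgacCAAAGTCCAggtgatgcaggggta

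There were 6 distinct windows among the 9. Cyp2c40 and Cyp2c69 had the same window, as had Cyp3a16, Cyp3a41a and Cyp3a41b, so the promoters are copies of one another and not independent. The motif began between 45 and 125 bases before the start. AGGTCA was held by 15 of the 43 members, Cyp2c39 among them through its other promoter only (34.9%, against 16.3% of all promoters) and TGTTTAC by 8 (18.6%, against 3.65%). The core of the AhR response element, GCGTG, was held by 6 (14.0%, against 32.4%), among them Cyp1a1 and Cyp1b1. The STAT5 motif TTCNNNGAA was in none of the 43, and in 8.30% of all promoters. No match in these windows says nothing of sites elsewhere.

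The Cyp3a subfamily, enzymes of steroid and drug oxidation on chromosome 5, moved the other way. Of 8 tested members 4 rose and none fell (edgeR's quasi-likelihood test), where 16% of all tested genes rose and 16.8% fell. The 8 had a median log2 fold change of 0.79. The summed counts of all 9 members had a log2 fold change of 0.68 (standard error 0.18, adjusted p = 0.00971). Cyp3a25 (ENSMUSG00000029630, chromosome 5 from 145977194 to 146009618) was at 471, 481 and 354 CPM (Nts+/+) and 322, 314 and 463 CPM (Nts-/-) in fed livers, and at 976, 563 and 677 CPM and 725, 889 and 780.0 CPM in fasted livers. Every fasted mouse was above every fed mouse (log2 fold change 0.94, standard error 0.15, adjusted p = 0.000417). Cyp3a59, which has 27.0% of the windows of its longest transcript in common with other genes, mostly Cyp3a25, was between 26.0 and 50 (median 33.6) CPM in fed and between 58.2 and 160.3 (median 85.7) CPM in fasted livers (log2 fold change 1.44, standard error 0.24, adjusted p = 0.00109).

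Cyp3a13 lies apart from the other Cyp3a genes, at 137892932 to 137921619, and no window of its longest transcript occurs in another gene. It was between 178 and 278 (median 210.3) CPM in fed and between 254 and 373 (median 325) CPM in fasted livers (log2 fold change 0.56, standard error 0.12, adjusted p = 0.00335). Cyp3a11, a target of PXR, was at 2279.8 to 4858 CPM in fed and 2926 to 7855 CPM in fasted livers, so that the ranges overlapped widely (log2 fold change 0.63, standard error 0.23, adjusted p = 0.0484). Its call was lost in 9 of the 12 fits that each left out 1 mouse (257, 323, 265, 322, 277, 303, 319, 284 or 290, adjusted p up to 0.110), while its log2 fold change was between 0.45 and 0.78 in these 12 fits. Upper-quartile normalization, limma-voom and no filter on low counts also ended it.

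Cyp3a16, Cyp3a41a, Cyp3a41b and Cyp3a44, which are predominantly female genes of mouse liver, varied between mice more than almost all other genes. None passed the fasting test (log2 fold changes 1.33, 0.58, 1.66 and 0.61, with standard errors of 1.27, 1.04, 1.06 and 0.63; adjusted p from 0.27 to 0.712). Cyp3a41a was at 386, 429 and 709 CPM in the fed livers labelled Nts+/+ and at 52.0, 867 and 2.50 CPM in those labelled Nts-/-. In fasted livers it was at 169.9, 718 and 396 CPM (Nts+/+) and at 1534, 449 and 461 CPM (Nts-/-). The highest fed mouse thus had 347 times the level of the lowest, both labelled Nts-/-. The spread within groups of each of these genes was above that of 99.6% of all tested genes.

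The sum of the near-identical copies varied as widely. Cyp3a41a and Cyp3a41b share 98.9% and 93.5% of the windows of their longest transcripts, mostly with each other, so that their single values are uncertain. Their sum was still between 2.50 and 876 CPM in fed mice, and that of the 4 genes between 4.96 and 928 CPM. Mice 319, 277 and 265 had the lowest Cyp3a41a, and mouse 319 also had the lowest Cyp3a16 (0 counts), Cyp3a41b (0 counts) and Cyp3a44 (2.46 CPM). Cyp3a11, Cyp3a13 and Cyp3a25 each varied by at most 2.68-fold among fed and among fasted mice. Of the 3 mice with the lowest Cyp3a41a, mouse 265 (fasted) had the highest Cyp3a11 (7855 CPM) and Cyp3a25 (976 CPM) of all mice. Mouse 277 (fed) had the lowest Cyp3a11 of all (2280 CPM), with Cyp3a25 at 322 CPM. Mouse 319 (fed) had 2771 CPM of Cyp3a11 and 463 CPM of Cyp3a25.

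**Figure D3:**
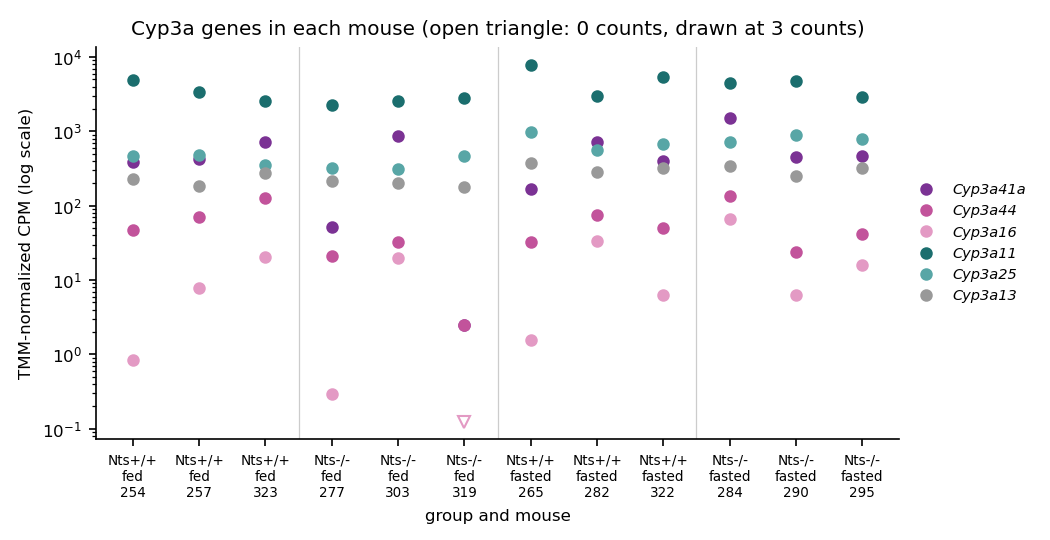
TMM-normalized CPM (log axis) of 6 Cyp3a genes in each of the 12 mice, grouped by label and feeding, with an open triangle at the level of 3 counts where a gene had 0 counts. Cyp3a41a, Cyp3a44 and Cyp3a16 span a wide range, with Cyp3a41a from 2.50 CPM in mouse 319, where Cyp3a44 lies on the same point, to 1534 CPM in mouse 284, while Cyp3a11, Cyp3a25 and Cyp3a13 vary less.

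Cyp2e1 (ENSMUSG00000025479, chromosome 7 from 140763739 to 140774987) rose with fasting, by the largest amount of all members in CPM. It was at 5883, 5198 and 6752 CPM (Nts+/+) and 5089.8, 4783 and 3244 CPM (Nts-/-) in fed livers, and at 11889.8, 11664 and 9469.8 CPM and 12808, 10125 and 12309 CPM in fasted livers. Every fasted liver was above every fed one, by 2.23-fold on average (log2 fold change 1.16, standard error 0.14, adjusted p = 3.52e-05). Cyp2e1 is a marker of pericentral hepatocytes, as are several other members. Of 8 pericentral P450 genes, 2 rose (Cyp2e1 and Cyp3a11), 2 fell (Cyp1a2 and Cyp2c29) and 4 did not pass. Over all tested genes 16% rose and 16.8% fell. Of 6 pericentral genes outside the family, Oat, Slc1a2 and Rhbg rose, none fell, and Glul, Lect2 and Axin2 did not pass. The 6 summed to 1094 to 2295 CPM in fed and 2767 to 4469 CPM in fasted livers. Most of the rise in this sum was Oat, with a mean of 779 CPM in fed and 2615 CPM in fasted livers. Glul, the most restricted of the 6, had a log2 fold change of 0.11 (adjusted p = 0.667 in edgeR). Of 6 periportal genes outside the family 1 rose and 3 fell. These 6 summed to 1299 to 2284 CPM in fed and 1250 to 2278 CPM in fasted livers, so that the ranges overlapped. The part of these differences in those of the P450 genes was not tested.

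**Figure D4:**
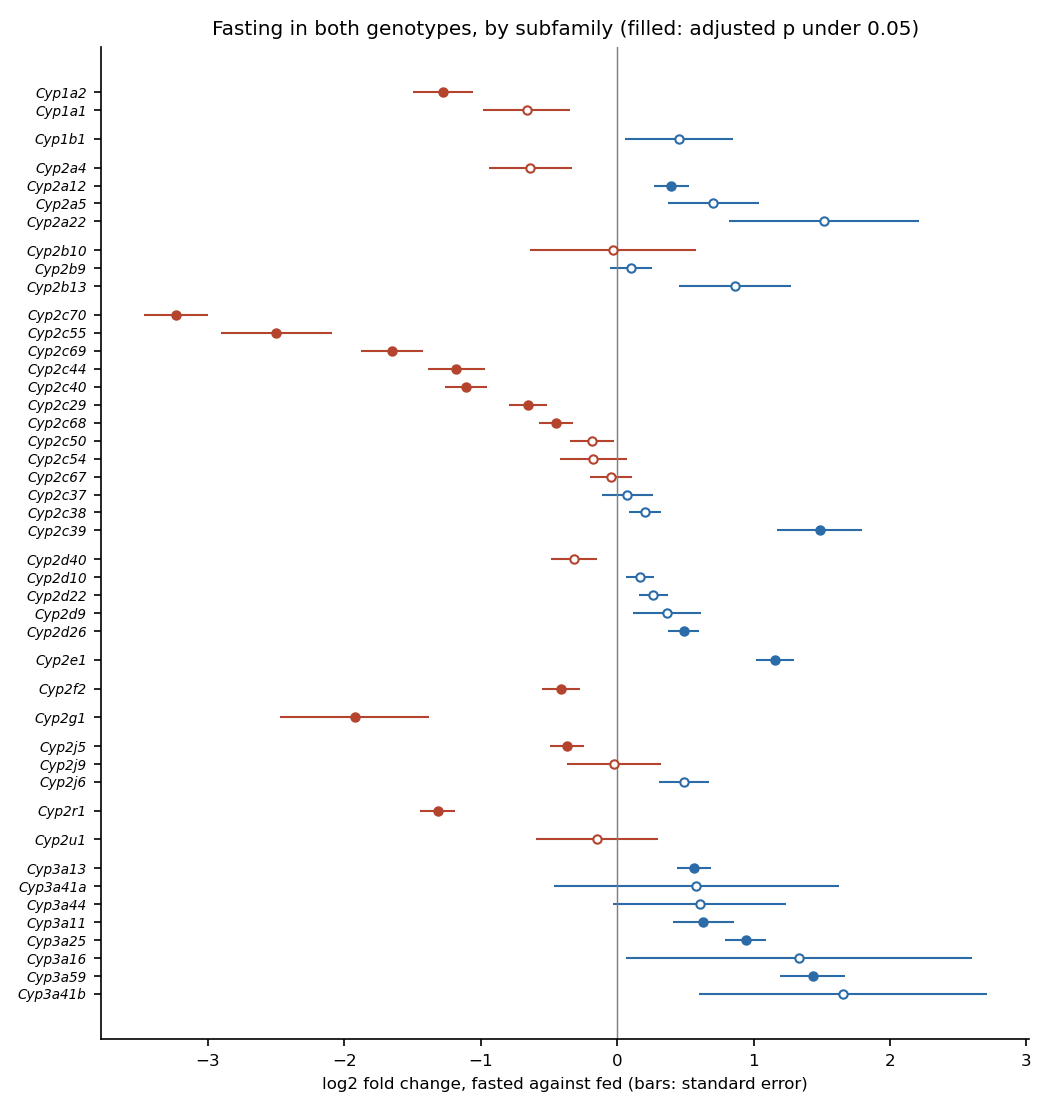
Log2 fold change of fasted against fed livers over both genotypes, with its standard error, for the 44 tested members grouped by subfamily (filled, adjusted p under 0.05; open, not passed; blue, above 0; red, below 0). The Cyp2c genes run from -3.24 (Cyp2c70) to 1.49 (Cyp2c39), all Cyp3a genes lie above 0, and the error bars of Cyp3a16, Cyp3a41a and Cyp3a41b are the widest.

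Cyp1a2 (ENSMUSG00000032310, chromosome 9 from 57676937 to 57683655), the pericentral AhR target that oxidizes caffeine and arylamines, fell. Its level was 644, 726 and 350.0 CPM (Nts+/+) and 384, 502 and 232 CPM (Nts-/-) in fed and 245, 222 and 180.5 CPM and 198, 179 and 129 CPM in fasted livers. The 2 ranges overlapped only through fed mouse 319 and fasted mouse 265 (log2 fold change -1.28, standard error 0.22, adjusted p = 0.000958). Cyp1a1, next to it on chromosome 9, was at 0.355 to 0.873 CPM in fed and 0.231 to 0.597 CPM in fasted livers and did not pass (log2 fold change -0.66, standard error 0.32, adjusted p = 0.13). Cyp1b1 did not pass either (log2 fold change 0.45, standard error 0.40, adjusted p = 0.407). The receptor Ahr and its partner Arnt had log2 fold changes of -0.14 (adjusted p = 0.584) and -0.091 (adjusted p = 0.432), and their repressor Ahrr had too few counts to be tested.

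Cyp2r1 (ENSMUSG00000030670, chromosome 7 from 114549682 to 114562972), the hydroxylase that carries out the first step of vitamin D activation, is a transcript of low level. It was at 14.3, 12.6 and 14.3 CPM (Nts+/+) and 16.4, 15.1 and 11.6 CPM (Nts-/-) in fed livers, and at 5.65, 5.32 and 7.67 CPM and 5.73, 5.24 and 4.42 CPM in fasted livers. The fed and fasted ranges were well apart, and Cyp2r1 fell 2.49-fold (log2 fold change -1.32, standard error 0.13, adjusted p = 6.95e-06). Its adjusted p was at most 4.19e-05 in each of the 12 fits without 1 mouse, the lowest such value after that of Cyp2c70. Cyp2g1, an enzyme best known from olfactory mucosa, was at 0.282 to 5.17 CPM in fed and 0.364 to 1.20 CPM in fasted livers (log2 fold change -1.92, standard error 0.55, adjusted p = 0.0204). Its call was lost without mouse 282 or 322 (adjusted p up to 0.0567), with limma-voom and without a filter on low counts.

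Smaller differences passed in 4 abundant members. Of 5 tested Cyp2d genes 1, Cyp2d26, rose (log2 fold change 0.49, standard error 0.11, adjusted p = 0.00456), from between 849 and 1119.6 (median 895) CPM in fed to between 1063 and 1489 (median 1339.6) CPM in fasted livers, and the summed Cyp2d counts had a log2 fold change of 0.34 (standard error 0.10, adjusted p = 0.0186). Cyp2a12, a testosterone and bile acid hydroxylase, rose (log2 fold change 0.40, standard error 0.13, adjusted p = 0.0301), while the periportal Cyp2f2, known for activating naphthalene, fell (log2 fold change -0.41, standard error 0.14, adjusted p = 0.034). The epoxygenase Cyp2j5 also fell (log2 fold change -0.37, standard error 0.12, adjusted p = 0.0333). These last 3 genes lay close to the threshold, and their calls were lost in 7, 8 and 8 of the 12 fits without 1 mouse (adjusted p up to 0.0748, 0.0959 and 0.0871). Their log2 fold changes stayed at 0.28 to 0.47, -0.52 to -0.34 and -0.44 to -0.31 in these fits. In all, 15 of the 20 calls held in every one of these 12 fits.

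The genes usually read as reporters of CAR did not move as a group. Of 7 members inducible through CAR or PXR, 1 rose (Cyp3a11), 2 fell (Cyp2c29 and Cyp2c55) and 4 did not pass. Among all tested genes 16% rose and 16.8% fell. Cyp2b10, the classical CAR target, ranged from 16.2 to 56.1 CPM in fed and from 10.2 to 97.5 CPM in fasted livers (log2 fold change -0.033, standard error 0.61, adjusted p = 0.973). Within the fasted livers labelled Nts+/+ alone it was at 97.5, 57.2 and 10.2 CPM. None of the 3 Cyp2b genes passed (edgeR's quasi-likelihood test), nor did their sum, at 0.36 (standard error 0.23, adjusted p = 0.246). Of the 4 Cyp2a genes 1 rose. Cyp2a5, which hydroxylates coumarin, and Cyp2a22 did not pass (log2 fold changes 0.71 and 1.52, adjusted p = 0.138 and 0.133), and Cyp2a22 ranged from 4.39 to 61.7 CPM among fed mice.

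Of 9 genes that are predominantly female in mouse liver, 2 fell (Cyp2c40 and Cyp2c69), none rose in edgeR's test, and the median log2 fold change was 0.58. Of 9 arachidonic acid epoxygenases, 3 fell (Cyp2c29, Cyp2c44 and Cyp2j5) and 1 rose (Cyp2c39). Of the 3 AhR-responsive members 1 fell. Of 6 tested members that are alone in their subfamily, 1 rose (Cyp2e1) and 3 fell (Cyp2f2, Cyp2g1 and Cyp2r1). Over all tested genes 16% rose and 16.8% fell, and these short lists were not tested as sets. Cyp2u1 had a log2 fold change of -0.15 (adjusted p = 0.834). Summed by subfamily, 8 of 13 tested subfamilies passed, where 32.8% of all 13781 rows of that fit did. Besides those given, they were Cyp1a at -1.28 (standard error 0.22, adjusted p = 0.000944), and Cyp2e, Cyp2f, Cyp2g and Cyp2r, which are single genes. Cyp2a, Cyp2j, Cyp1b and Cyp2u did not pass.

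Other genes of the pathway were taken from the same fit. Por, the reductase that serves all of these enzymes, rose (log2 fold change 1.40, standard error 0.09, adjusted p = 2.56e-07), from between 254 and 312 (median 273) CPM in fed to between 634 and 827 (median 739) CPM in fasted livers. Cyb5r3, which reduces cytochrome b5, fell (log2 fold change -1.34, standard error 0.12, adjusted p = 5.21e-06). Cyb5a, Pgrmc1, Alas1 and Hmox1 did not pass, so that of 6 electron partners and heme genes 1 rose and 1 fell. Of 17 tested receptors and factors 3 rose (against 16% of all tested genes) and 1 fell (against 16.8%). Those that rose were Nr1i3, which encodes CAR (1.08 (adjusted p = 7.36e-06)), Cebpb (1.14 (adjusted p = 0.00528)) and Ppara (0.75 (adjusted p = 0.00207)). Stat5b, which carries the growth hormone signal, fell (-0.33 (adjusted p = 0.0218)). Nr1i2, which encodes PXR (0.15 (adjusted p = 0.471)), and Hnf4a (0.24 (adjusted p = 0.162)) did not pass. Ephx2, which hydrolyses the epoxides made by the epoxygenases, rose (log2 fold change 1.29, standard error 0.11, adjusted p = 2.46e-06), and Ephx1 had a log2 fold change of 0.008 (adjusted p = 0.981).

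Markers of other cells also differed between fed and fasted livers. Of the 5 stellate cell markers 4 fell, of the 5 endothelial ones 3 fell and 1 rose, and of the 5 Kupffer cell and the 4 tested cholangiocyte markers 1 fell each. None of 5 lymphocyte markers passed in edgeR's test. Among all tested genes 16% rose and 16.8% fell. The summed cholangiocyte level was 33.4 to 49.7 CPM in fed and 13.7 to 29.6 CPM in fasted livers, and that of the stellate markers 193 to 269 CPM in fed and 182 to 205 CPM in fasted livers. The endothelial markers summed to 126 to 187 CPM in fed and 107 to 131 CPM in fasted livers, the Kupffer cell markers to 244 to 445 and 195 to 334 CPM. Of the pancreatic and the intestinal list, 1 gene each had enough counts, Cela1 (-1.45 (adjusted p = 3.73e-05)) and Fabp2 (1.40 (adjusted p = 8.23e-05)). The pancreatic list summed to 7.53 to 13.3 CPM in fed and 2.68 to 5.45 CPM in fasted livers and the intestinal list to 41.3 to 95.2 and 106 to 203 CPM, while 1 to 4 of the 5 genes of each list were at 0 in all mice of a group. Of the 5 hepatocyte markers 2 rose and 1 fell. Their part in the P450 differences was not tested.

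The second question was whether each genotype showed these differences on its own (3 mice against 3). In livers labelled Nts+/+, 13 of 44 members passed (29.5%, against 18.1% of all tested genes), 4 higher (against 8.91%) and 9 lower (against 9.19%). In livers labelled Nts-/-, 13 passed as well (29.5%, against 16.8%), 5 higher (against 7.7%) and 8 lower (against 9.14%). The comparisons share no mouse, but both use the same estimate of the spread from all 12 mice. A total of 11 members passed in both, which is 84.6% of each list, and all 11 moved in the same direction. The same overlap over all tested genes was not computed, so this is not read as a trait of the family. The 11 were Cyp2c70, Cyp2c55, Cyp2c69, Cyp2c44, Cyp2c40, Cyp2c29, Cyp1a2 and Cyp2r1, which fell, and Cyp2e1, Cyp3a25 and Cyp3a59, which rose. Cyp2c39 and Cyp2c68 passed only in livers labelled Nts+/+, and Cyp3a13 and Cyp2d26 only in those labelled Nts-/-, but none of these 4 passed the direct test of the difference between the genotypes (adjusted p = 0.901 to 0.961 in edgeR). With 1 mouse fewer the counts were lower, and so was the share over all genes. Without mouse 254 there were 8 members in livers labelled Nts+/+ (18.2%, against 9.46% of all tested genes), and without mouse 295 there were 8 in those labelled Nts-/- (18.2%, against 12.3%). Of 13 subfamily totals 4 passed in Nts+/+ (18.1% of all rows of that fit did) and 5 in Nts-/- livers (16.9% of all rows), the latter falling to 2 without mouse 277 or 303 and to 3 without 284, 290 or 295.

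**Figure D5:**
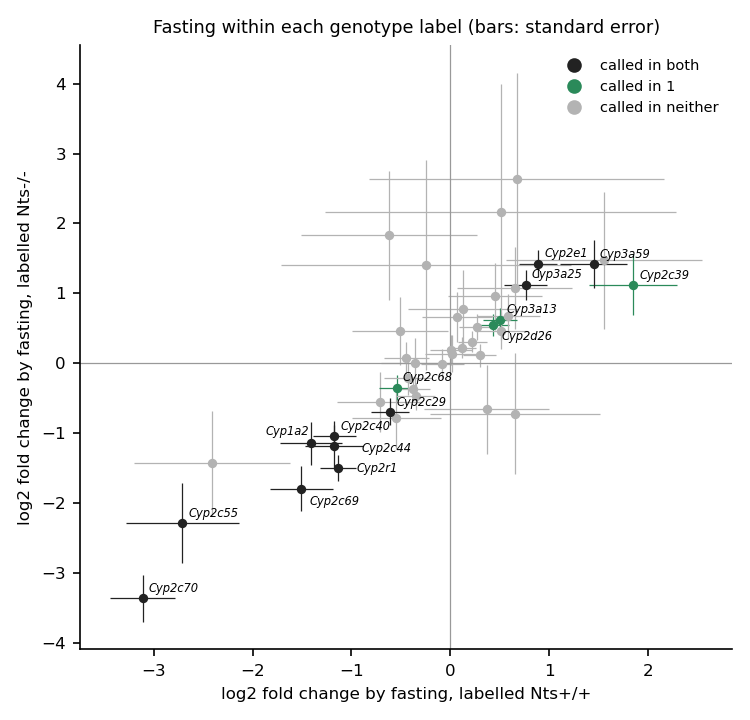
Log2 fold change by fasting in livers labelled Nts+/+ (horizontal) and Nts-/- (vertical), with standard errors, for the 44 tested members (black, passed in both; green, passed in 1; grey, in neither). The 11 black points lie in the lower left and upper right, from Cyp2c70 at -3.11 and -3.36 to Cyp3a59 at 1.45 and 1.42, and the grey points with long bars are the variable Cyp3a genes.

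The size of the response was then compared between the genotypes directly. No member passed (edgeR's quasi-likelihood test, where 0% of all tested genes passed), and 0 of 44 had an unadjusted p under 0.05 (4.8% of all tested genes did). DESeq2 and limma-voom also called 0 members after adjustment, with 2 members each at the unadjusted level. In edgeR without mouse 303 there were 4 at that level. The share of all genes at that level was not computed for these other fits. The smallest p among members was that of Cyp2e1, which rose by 0.89 in livers labelled Nts+/+ and by 1.43 in those labelled Nts-/- on the log2 scale (difference 0.54, standard error 0.27, adjusted p = 0.897 in edgeR). Cyp3a44 (difference 2.44, standard error 1.28) and Cyp2c50 (difference 0.53, standard error 0.32) followed, with adjusted p = 0.897 and 0.897. For Cyp2c70 the difference was -0.25, with a standard error of 0.43. Differences of that size were not detectable at this standard error.

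The third question was whether the livers labelled Nts-/- differed from those labelled Nts+/+. In fed livers no member passed (0% of all tested genes did in edgeR's test), and 2 of 44 had an unadjusted p under 0.05 (4.55%, against 6.34% of all tested genes). With DESeq2, which gave an adjusted p to 38 of the members, 5 of these 38 were at that level. Among all 44 members the count was 2 with limma-voom, 6 without mouse 303 and 1 without mouse 319. In fasted livers no member passed either (0% of all tested genes), and 3 did at the unadjusted level (6.82%, against 4.96%), as with DESeq2 and limma-voom. DESeq2 and limma-voom called 0 members after adjustment in both states, DESeq2 among 38 members in fed livers. Of all genes with an adjusted p, DESeq2 called 0.0864% in fed and 0.029% in fasted livers, and limma-voom 0.00724% and 0%. The share of all genes at the unadjusted level was computed for the main fit only. In fed livers the members with the smallest p were Cyp2e1 (log2 fold change -0.44), Cyp2c40 (-0.47) and Cyp3a44 (-2.12), with adjusted p between 0.765 and 0.777 in edgeR. Cyp2e1 was at 5944 ± 779 CPM (SD, n = 3) in fed livers labelled Nts+/+ and at 4372 ± 989 CPM (SD, n = 3) in those labelled Nts-/-. In fasted livers the members with the smallest p were Cyp2c38 (-0.42), Cyp2f2 (-0.44) and Cyp2c69 (-0.69), each with an adjusted p of 0.917 in edgeR.

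In fed livers 39 of the 44 members were nonetheless lower in the livers labelled Nts-/- than in those labelled Nts+/+. The other 5 were higher, where 7160 of all 13812 tested genes were higher. The median log2 fold change was -0.23, against 0.010 over all tested genes. The count of 39 moved most with mouse 319, labelled Nts-/-, which had the lowest level of the 6 fed mice in 23 of 44 members. Without it 28 of 44 were lower, and without mouse 254, labelled Nts+/+, 32 were. In the same comparison none of the zonation and Kupffer cell markers passed in edgeR. The 6 periportal genes outside the family were all higher in livers labelled Nts-/- (median log2 fold change 0.29). Of the 6 pericentral ones 4 were lower and 2 higher (median -0.36), and the 5 Kupffer cell markers were all lower (median -0.43). The other cell type markers went both ways, and none passed. Higher in livers labelled Nts-/- were 4 of 5 stellate cell (median 0.27) and 3 of 5 endothelial markers (median 0.065). So were 2 of 5 hepatocyte, 2 of 5 lymphocyte and 1 of 4 tested cholangiocyte markers. Mouse 319 had the lowest pericentral sum of the fed mice (1094 CPM, against 1828 to 2295 CPM), the highest periportal sum (2284 CPM, against 1299 to 1658 CPM) and the lowest Kupffer cell sum (244 CPM, against 302 to 445 CPM). The periportal member Cyp2f2 was lower in fed livers labelled Nts-/- (log2 fold change -0.32). It was also lowest in mouse 319 (362 CPM, against 429 to 583 CPM in the other fed mice). The part of the zonation and cell type markers in the lower P450 levels was not tested. In fasted livers 25 of the 44 members were lower and 19 higher, with a median of -0.076. Of all 13812 tested genes 6676 were higher there, with a median of -0.0087. The members share regulators and, in part, reads, and are not independent of one another. Nr1i3 was lower in fed livers labelled Nts-/-, at 91.9, 93.4 and 78.9 CPM against 191, 148 and 139.5 CPM, the second smallest p of all 13812 genes, but it did not pass (log2 fold change -0.86, adjusted p = 0.356 in edgeR). Its target Cyp2b10 had a log2 fold change of 0.26 there, with a standard error of 0.86.

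The members varied more between mice of one group than other genes. The median standard deviation within groups, on the log2 scale, was 0.40 for the 44 tested members and 0.21 for all 13812 tested genes, and 14 members were above the 95th percentile of all genes. Besides the female-predominant Cyp3a genes, Cyp2a22 and Cyp2b10 lay at percentiles 99.6 and 99.5. Cyp2d10, Cyp2d22 and Cyp2d26 varied least of the tested members, at percentiles 24, 31.4 and 35.4. Cyp2d22, for example, was at 137 to 173 CPM in all fed and at 149.7 to 213 CPM in all fasted mice.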

How the data were processed

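RNA was isolated by the authors from snap-frozen liver of 12 mice. The authors deposited 1 table of expected counts, that is, reads estimated for each gene, with fractions and without scaling between mice. The submitters' processing notes name Trimmomatic, RSEM and GRCm38. The aligner is not given in the sources used here. RSEM divides reads that match several genes by estimate, which makes the values of near-identical P450 genes uncertain. All samples carry the same batch label. The table held 12 count columns, 1 for each mouse, and 0 of other samples.

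Expected counts, of which 6.94% to 8.66% per mouse were not whole, were rounded to integers. With edgeR 4.0.16 (R 4.3.3), filterByExpr reduced 48795 genes to 13812, which were normalized with TMM and fitted in a model with 1 mean for each group, tested by robust quasi-likelihood. Compared were fasted against fed livers over both genotypes and within each, Nts-/- against Nts+/+ within each feeding state, and the difference of the fasting effects. Genes with a Benjamini-Hochberg adjusted p under 0.05, over all tested genes, were said to pass. The biological coefficient of variation was 0.202. Subfamily totals replaced the members by their summed counts in the same fit of 13781 rows. Libraries held 21999647 to 45273069 counts, so that 3 counts correspond to 0.0663 to 0.136 CPM. Pairs of mice within a group differed by far more than counting noise (chi-square per degree of freedom at least 36.9).

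Lengths came from GENCODE vM39, as did the 50-base windows of each member's longest transcript that occur in any transcript of another gene, and promoters from RefSeq (GRCm38.p6), of the build of the table. The steps were tested on simulated counts. Lists within the family, other pathway genes and cell type markers were written from general knowledge. The members and lists were chosen with earlier results of these data known. Genes named are up to 12 higher and 12 lower passing members per fasting contrast, the 10 most abundant, the AhR-responsive and single-gene members, the 3 smallest p in each genotype contrast, and the members at the count minimum. A further gene of the check of the feeding state is not reported here. Other members are named to complete a list or subfamily, with their values known. Alternatives were upper-quartile and RLE normalization, DESeq2 1.42.0 (Wald test), limma-voom (limma 3.58.1), a fit without a filter on low counts, a minimum of 10 counts per mouse, fits of the compared mice alone, a threshold of 0.10, a log2 fold change of 1 or more in size, and fits without 1 mouse.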

Additional observations from a re-analysis of the deposited data

How the results depend on the processing

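Asking also for a log2 fold change of 1 or more in size left 11 members for fasting in both genotypes (25% of the members, against 7.83% of all tested genes), and 4 (both genotypes), 2 (Nts+/+) and 3 (Nts-/-) subfamily totals. With 1 mouse left out at a time, between 16 and 22 members passed for fasting in both genotypes (against 26.5% to 32.6% of all tested genes). In Nts+/+ livers 8 to 12 passed (8 without mouse 254, against 8.7% to 17.1% of all tested genes). In Nts-/- livers 8 to 13 passed (8 without mouse 295, against 9.68% to 18.7%). For subfamily totals the ranges were 6 to 9, 4 to 4 and 2 to 5, with 2 without mouse 277 or 303. For these totals the share over all rows was not computed, with 1 mouse left out or with a log2 fold change of 1 or more. Between genotypes and for the difference of the fasting effects, no member and no subfamily passed in any fit of edgeR with 1 mouse left out (0 to 0). All other totals of passing members and subfamilies stayed within 1.5 times under the other alternatives. Counts split by direction moved more, and without a filter on low counts 5 members were lower for fasting in Nts-/- livers, against 8.

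Of 61 values named by rule, in 28 members, the fits without 1 mouse kept direction and call in 455 cases, lost the call in 78, gained it in 1 and turned the direction in 6. The last were Cyp2c37 for fasting (-0.0059 without mouse 254 and -0.044 without 319, of a range up to 0.22) and Cyp2u1 (0.033 without 323, 0.030 without 322, 0.072 without 319 and 0.048 without 295, of a range from -0.63), neither of which passed. Cyp2a12 lost its call without mouse 257, 323, 265, 277, 319, 284 or 295, Cyp2f2 without 254, 257, 282, 322, 277, 303, 284 or 290, and Cyp2j5 without 254, 323, 282, 322, 277, 303, 284 or 290. The causes were not tested. No paired analysis was possible because each mouse number occurs in 1 group only. With 3 mice in a group, low members such as Cyp2c55, Cyp2g1 and Cyp1a1 and the variable Cyp3a genes are measured with wide errors.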

Other observations

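The 11 family genes that were left out had between 0 and 3 counts over all 12 mice. These were Cyp2b19, Cyp2b23, Cyp2c65, Cyp2c66, Cyp2d34, Cyp2j7, Cyp2j11, Cyp2j12, Cyp2j13, Cyp2t4 and Cyp2w1, and 7 of them had 0 counts. Among members that could not be tested, Cyp3a57 had 0 counts in 6 of the 12 mice and was at 0.366 CPM in mouse 284, which also had the highest Cyp3a16, Cyp3a41a and Cyp3a44.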
